A study of Mus musculus with 20 samples.

Results

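Transcripts of 9 genes that build the tight junction plaque and set the apical-basal polarity of epithelia were measured in the RPE-choroid of mice of 2 *Stra6* genotypes on 2 vitamin A diets. The genes are *Tjp1*, *Tjp3*, *Cgn*, *Prkci*, *Ocln*, *Marveld2*, *F11r*, *Jam2* and *Jam3*, picked by symbol when earlier results of these data were known, and they are 9 of the 24411 rows of the deposited table and 9 of the 18807 genes tested. All mice were C57BL/6 by the labels (the methods of the study give C57BL/6J for the *Stra6*-/- line), were raised on standard chow until weaning at about 28 days, and then received for 12 weeks a diet with 4 IU vitamin A per g (vitamin A sufficient, VAS) or 0 IU per g (vitamin A deficient, VAD). WT and *Stra6*-/- mice, the latter a knockout of the gene for the retinol transporter STRA6, gave 4 groups of 5 libraries (VAS WT, VAD WT, VAS *Stra6*-/- and VAD *Stra6*-/-), each library from the pooled eyecups of 1 mouse by the methods of the study. WT mice came from a commercial supplier and *Stra6*-/- mice from the study's own colony, so that origin and genotype cannot be told apart.

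Tight junctions seal the space between neighbouring epithelial cells. Transmembrane proteins (occludin, tricellulin, the junctional adhesion molecules and the claudins) meet across the cell border, and zonula occludens scaffolds and cingulin tie them to the actin cytoskeleton, while the atypical protein kinase C of the Par complex places the junction at the apical side. In the RPE these junctions form the outer blood-retina barrier, and the same proteins seal the corneal and conjunctival surface and, in part, blood vessels.

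The values below are gene counts divided by 1 size factor per library, without correction for gene length, and are called normalized values. Each library rested on 13331903 to 21878614 reads, and the least covered of the 9 genes still had 57 reads in the lowest of the 19 libraries whose reads could be recovered. By its values alone, *Stra6* went against the labels on the VAD diet. With vitamin A in the diet, *Stra6* values were 2414 to 2742 for WT and 564 to 694 for *Stra6*-/-. On the VAD diet, mice with the *Stra6*-/- label gave 1973 to 2393. Mice with the WT label gave 693, 1340, 697, 1529 and 669 (replicates 1 to 5). Of these, replicates 1, 3 and 5 were within or just above the range of VAS *Stra6*-/-. Replicates 2 and 4 were above that range and below every VAS WT library. *Stra6* is expressed in the RPE, and RPE markers differed between the libraries too. The sum of 10 such markers was 41317 to 83907 under the VAD WT label and 556369 to 599926 under VAD *Stra6*-/-. It was 130919 to 147371 in VAS WT and 146763 to 154467 in VAS *Stra6*-/-. Relative to this sum in the same library, *Stra6* was lower in every library labelled *Stra6*-/- than in every WT one, on both diets. Reads were counted over the whole gene, and the deleted stretch is not given in the sources used here. The VAD groups are therefore called by their labels throughout, and every direction and size drawn from them rests on those labels. Replicates 2 and 4 of the libraries labelled VAD WT stood apart from replicates 1, 3 and 5: over all genes tested the root mean square difference of such a pair was 1.24 to 1.30 on the log2 scale, against 0.61 to 1.03 in the other 34 pairs within groups. Calls on the 9 genes that involve this group are given with and without both, and so are the counts and named genes of the other junction lists. Levels per kilobase, marker calls and marker list tests, median log2 fold changes and shares of genes whose groups did not overlap are given with both only.

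The tissue label was checked against marker lists. The 10 RPE markers were detected in all groups, with none at 0, and summed to 130919 to 147371 in VAS WT, 41317 to 83907 in the libraries labelled VAD WT, 146763 to 154467 in VAS *Stra6*-/- and 556369 to 599926 in those labelled VAD *Stra6*-/-. The 15 surface epithelium markers (keratins of cornea and conjunctiva, *Trp63*, *Epcam*, *Cdh1* and others), also with none at 0 in any group, summed to 727269 to 856723, 437674 to 1178271, 952711 to 989864 and 33019 to 43126 in the same order. Markers of both tissues were thus present under the RPE-choroid label. In every library of the other groups the surface epithelium sum was above the RPE sum, and in all those labelled VAD *Stra6*-/- it was below. The lists differ in length and genes, so the sums are not shares of tissue. The libraries labelled VAD *Stra6*-/- had the lowest surface epithelium sums and the highest RPE sums of all 20. In bulk tissue, fewer cells of a type and less RNA per cell cannot be told apart, and this holds for every result on the 9 genes.

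**Figure D1:**
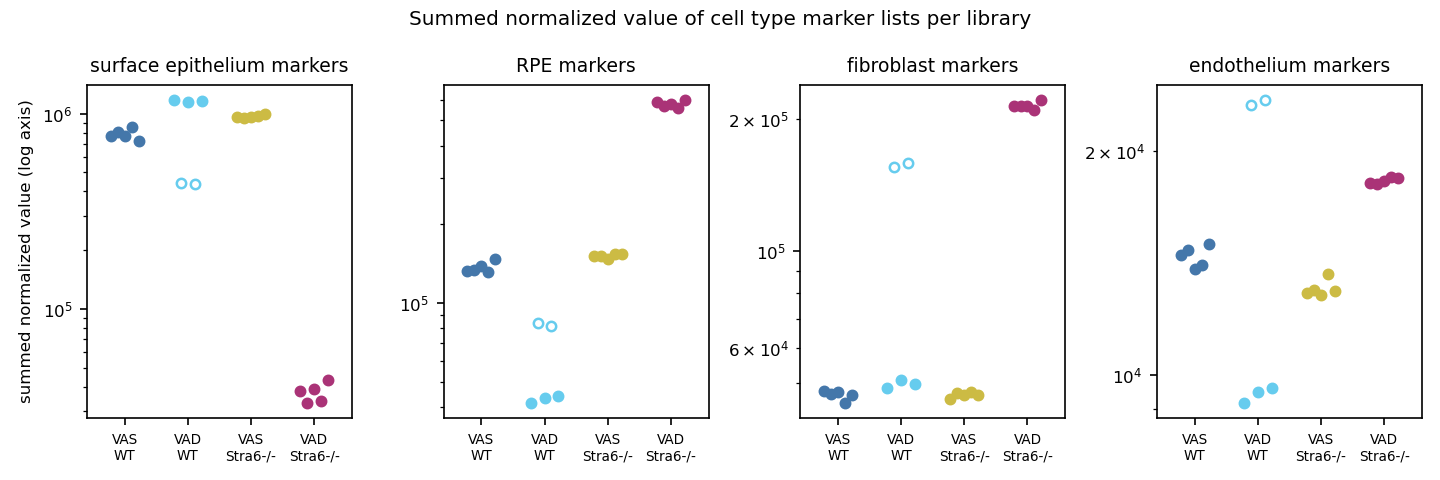
Summed normalized value (log axis) of the surface epithelium (15), RPE (10), fibroblast (8) and endothelium (12) marker lists, 1 point per library in the 4 groups, with open points for replicates 2 and 4 of VAD WT. The 5 libraries labelled VAD *Stra6*-/- lie at 33019 to 43126 for surface epithelium and 556369 to 599926 for RPE, outside the range of all other libraries in both panels.

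Levels were compared between genes only per kilobase of annotated exon (GENCODE vM21). In VAS WT, *F11r* (JAM-A, an immunoglobulin-like adhesion molecule of epithelia) was highest at 1407 ± 69.9 (mean ± SD, n = 5) per kilobase. *Tjp3* (the scaffold ZO-3) followed at 789.7 ± 54.3, then *Tjp1* (ZO-1) at 360.5 ± 26.9. *Marveld2* (tricellulin, found where 3 cells meet) was lowest at 95 ± 9.70 per kilobase, and *Ocln* (occludin) next to it at 131 ± 4.59. Of the 8 pairs of neighbours in this order, 3 had overlapping ranges in VAS WT (*Tjp1* and *Prkci*, *Prkci* and *Cgn*, *Jam2* and *Ocln*). The highest mean was 14.8 times the lowest in VAS WT, 15.9 times in VAS *Stra6*-/- and 12.0 times in the libraries labelled VAD WT, where all 8 pairs of neighbours overlapped.

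The order was another one in the libraries labelled VAD *Stra6*-/-, with a span of 52.4 times. *Jam3* (JAM-C, an adhesion molecule of RPE, endothelium and other cells) stood first at 989 ± 90.5 per kilobase and *F11r* second at 266 ± 28.7. *Jam2* (JAM-B, known from endothelium) followed at 207 ± 16.7, and *Tjp3* had dropped to next to last at 36.2 ± 5.68 per kilobase. Only 2 of the 8 pairs of neighbours overlapped there, *Prkci* with *Tjp1* and *Ocln* with *Tjp3*.

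The sequence before the start site is shown for *Tjp3* and *F11r*, which had the largest falls of the 9 genes on the VAD diet under the *Stra6*-/- label, and for *Cgn*, which had the smallest of the 7 falls there. The genes shown were picked by those falls, and a part of the motifs in them was not tested. RefSeq promoter entries (GRCm38.p6, 250 bases before to 50 bases after a start) were found for 7 of the 9 genes, 10 entries in all, and not for *Jam2* and *Jam3*. Each line gives the 250 bases before the start, 5′ to 3′ on the gene's strand. Capitals mark matches on either strand to the E-box CACCTG, a motif bound by Snail and Zeb repressors of epithelial genes, to AACCNGTT, the motif of Grainyhead-like epithelial factors, and to AGGTCA, the half-site of nuclear receptors such as the retinoic acid receptors. No motif holds another within it, and *Tjp3* is shown by 1 of its 2 entries.
*F11r*, chr1:171437311-171437560, plus strand: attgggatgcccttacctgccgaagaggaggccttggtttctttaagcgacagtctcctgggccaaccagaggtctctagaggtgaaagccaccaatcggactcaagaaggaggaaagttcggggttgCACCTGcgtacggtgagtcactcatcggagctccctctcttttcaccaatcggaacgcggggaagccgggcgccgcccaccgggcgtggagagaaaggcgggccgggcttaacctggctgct
*Tjp3*, chr10:81291582-81291831, minus strand: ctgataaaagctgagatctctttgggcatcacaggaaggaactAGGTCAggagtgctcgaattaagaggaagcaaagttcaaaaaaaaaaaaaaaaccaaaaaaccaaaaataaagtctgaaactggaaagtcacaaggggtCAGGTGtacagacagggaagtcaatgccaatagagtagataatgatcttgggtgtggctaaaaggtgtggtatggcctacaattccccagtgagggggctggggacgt
*Cgn*, chr3:94786483-94786732, minus strand: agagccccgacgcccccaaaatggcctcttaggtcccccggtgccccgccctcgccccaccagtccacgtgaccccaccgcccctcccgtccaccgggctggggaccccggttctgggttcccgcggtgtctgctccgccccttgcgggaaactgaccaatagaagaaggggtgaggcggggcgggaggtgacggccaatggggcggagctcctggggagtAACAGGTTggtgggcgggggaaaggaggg
Counted from 0 at the start site, the E-box of *F11r* began at -122, the half-site and the E-box of *Tjp3* at -207 and -108, and the Grainyhead-like match of *Cgn* at -29. The *Tjp3* entry that is not shown had an E-box at -17 and no half-site or Grainyhead-like match. Over the whole windows, CACCTG was present in 7 of the 10 entries (*F11r*, *Marveld2*, *Ocln* and *Tjp3*) and in 20.2% of all 32851 RefSeq promoters. AGGTCA was present in 2 entries (*Ocln* and *Tjp3*) and in 16.3% of all promoters, and AACCNGTT in *Cgn* only and in 2.09% of all. The windows of the 2 *Ocln* entries overlap, as do those of the 2 *Marveld2* entries, so entries of 1 gene are not separate observations, and a match describes letters only.

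**Figure D2:**
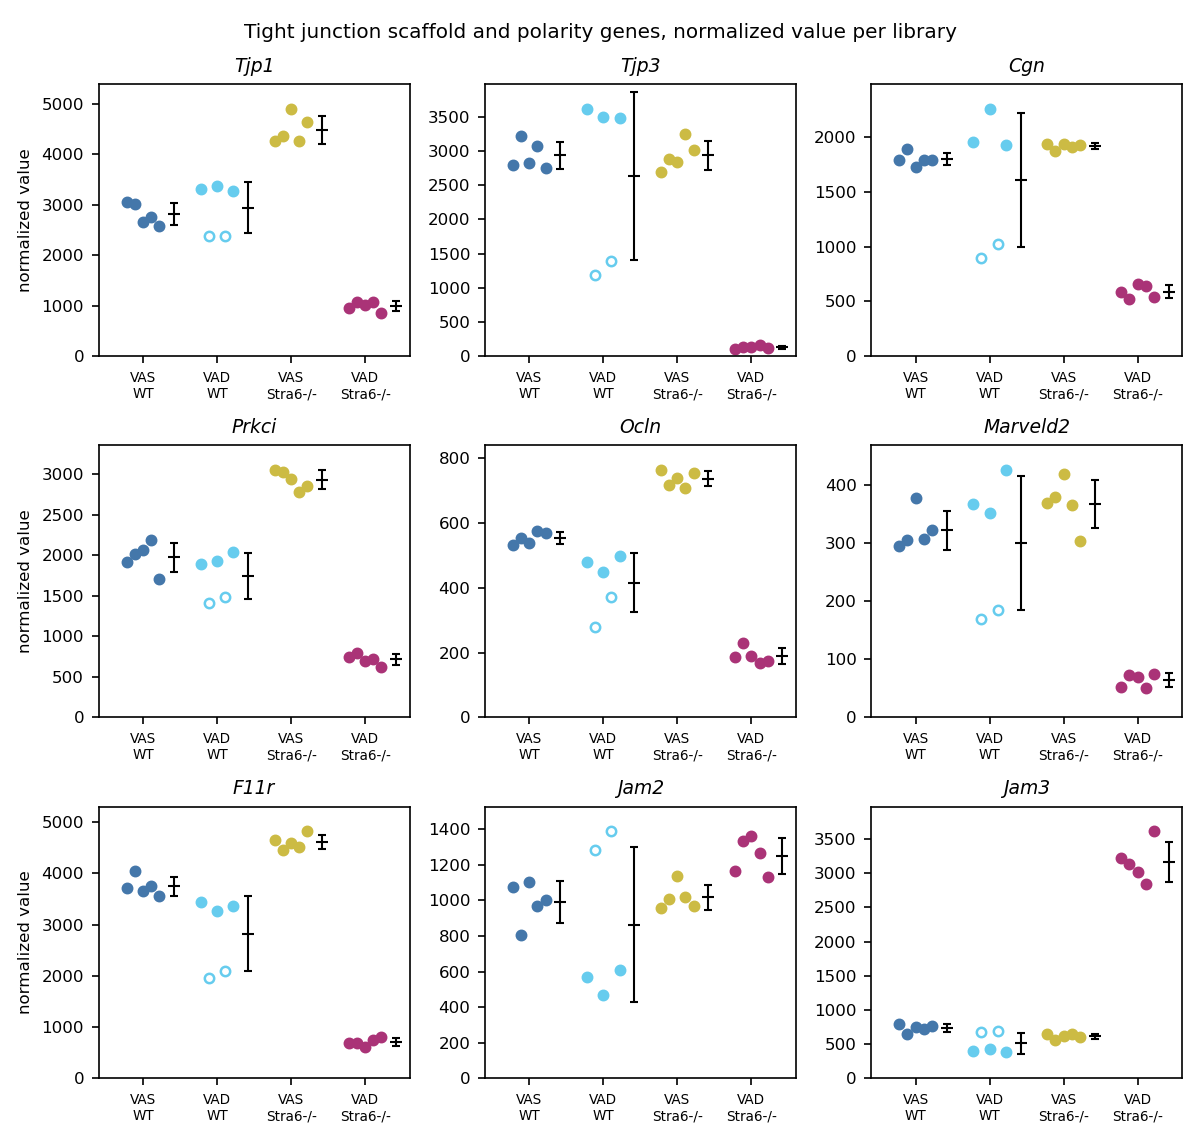
Normalized value per library (vertical axis, from 0) of the 9 genes in the 4 groups, 5 points each, with the mean ± SD at the right of each group and open points for replicates 2 and 4 of VAD WT. In 7 panels the 5 libraries labelled VAD *Stra6*-/- lie below all others, and for *Jam3* they lie above all others, between 2839 and 3613.

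The comparison of VAS *Stra6*-/- with VAS WT asked what loss of the transporter did while the diet held vitamin A. *Tjp1*, *Prkci* and *Ocln* rose, 3 of 9 genes, where 15.9% of all genes tested were called higher. None of the 9 was called lower, where 10.8% of all genes were (limma, Benjamini-Hochberg adjusted p). The median log2 fold change of the 9 genes was 0.19, and that of all genes tested was 0.02.

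*Tjp1*, the central ZO-1 scaffold, read 3064, 3007, 2669, 2753 and 2585 in the 5 VAS WT libraries. In VAS *Stra6*-/- it read 4266, 4366, 4893, 4268 and 4633. Every VAS *Stra6*-/- library lay above every VAS WT library, and the rise was 1.59-fold (log2 fold change 0.67, SE 0.10, adjusted p = 3.16e-05, limma). *Prkci* encodes the atypical protein kinase C iota, the catalytic member of the Par complex. It read 1910.4, 2011, 2066, 2183 and 1705 in VAS WT and 3048, 3027, 2946, 2778 and 2855 in VAS *Stra6*-/-. The groups did not overlap and the rise was 1.49-fold (log2 fold change 0.57, SE 0.10, adjusted p = 1.41e-04, limma). *Ocln*, the occludin gene, read 531, 555, 539, 577 and 569 in VAS WT and 763, 718, 739, 708 and 755 in VAS *Stra6*-/-. These groups did not overlap either, with a rise of 1.33-fold (log2 fold change 0.41, SE 0.12, adjusted p = 0.0181, limma).

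The other 6 genes did not pass the test. *F11r* had a mean of 3747 ± 186 (SD, n = 5) in VAS WT, while VAS *Stra6*-/- gave 4604 ± 140.0 (SD, n = 5). Although these groups did not overlap, its adjusted p was 0.0945 (limma; log2 fold change 0.30, 95% interval 0.03 to 0.57). In all, 4 of the 9 genes lay wholly higher and none wholly lower, where 19.3% and 13.2% of all genes tested did. The intervals were -0.50 to 0.50 for *Tjp3*, -0.28 to 0.47 for *Cgn*, -0.26 to 0.63 for *Marveld2*, -0.41 to 0.49 for *Jam2* and -0.55 to 0.02 for *Jam3*, all on the log2 scale. None of the 9 was lower at an unadjusted p under 0.05 in limma or DESeq2, and 1 was in edgeR, which called none lower after adjustment. The limma intervals use 1 spread per gene shared by all 4 groups, so they also hold the spread of the VAD libraries. The SD of *F11r* was 4.97% of the mean in VAS WT, 3.04% in VAS *Stra6*-/- and 25.8% in the libraries labelled VAD WT. For *Cgn* these were 3.16%, 1.49% and 37.9%, and for *Jam3* 7.91%, 6.38% and 29.6%. With only these 2 groups in the fit, *F11r* (adjusted p = 9.02e-05, limma) and *Cgn* (0.0178) were called higher as well and *Jam3* (0.00708) lower. The share of all genes called in that fit is not given here. Marker lists moved between these groups as well. Surface epithelium markers summed to 952711 to 989864 in VAS *Stra6*-/- against 727269 to 856723 in VAS WT, with no overlap, and their mean log2 value was higher by 0.23 (adjusted p = 0.0127, exact permutation test), with 4 of 15 called higher and 4 lower. RPE markers summed to 146763 to 154467 against 130919 to 147371, with a mean log2 value higher by 0.20 (adjusted p = 0.0221, exact permutation test) and 1 of 10 called in each direction. All 8 skeletal muscle markers were higher (summed 27382 to 31265 against 10945 to 12946), Schwann cell markers were lower in 4 of 7 (5917 to 6176 against 9926 to 10804) and endothelium markers in 3 of 12 (12811 to 13649 against 13892 to 15010.4). The part of these lists in the result was not tested.

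**Figure D3:**
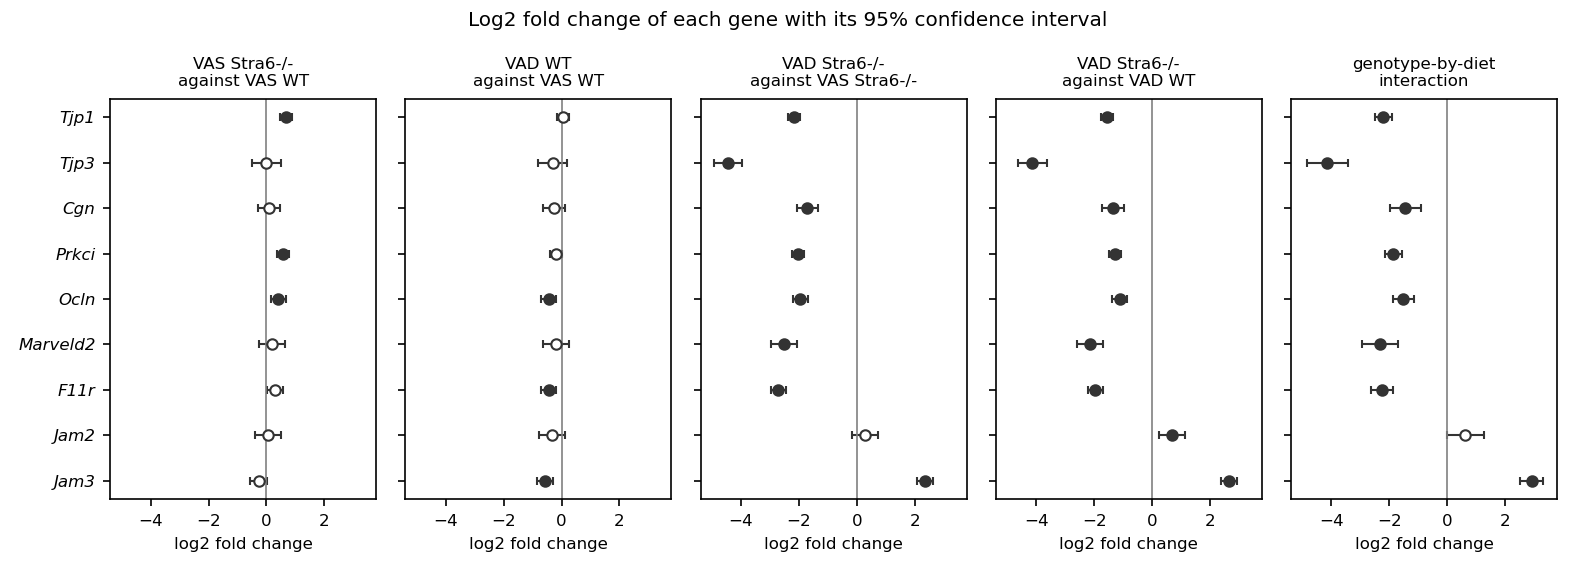
Log2 fold change (horizontal axis) of the 9 genes with its 95% confidence interval in the 4 comparisons of groups and in the genotype-by-diet interaction, with filled points where the limma adjusted p was under 0.05. The 2 comparisons that involve VAD *Stra6*-/- reach -4.45 for *Tjp3* and 2.66 for *Jam3*, while no other comparison of groups exceeds 0.67 in size.

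The comparison of the libraries labelled VAD WT with VAS WT asked what the diet did under the WT label. *F11r*, *Ocln* and *Jam3* fell, 3 of 9 genes, where 5.5% of all genes tested were called lower. None of the 9 was called higher, where 3.29% were, and none was higher at an unadjusted p under 0.05 in limma, edgeR or DESeq2. The median log2 fold change of the 9 genes was -0.31, and that of all genes tested was 0.0017.

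*F11r* read 3433, 1956, 3262, 2099 and 3355 in the libraries labelled VAD WT, against 3719.7, 4048, 3657, 3759 and 3549 in VAS WT (log2 fold change -0.45, SE 0.13, adjusted p = 0.0311, limma). *Ocln* read 479.8, 280.2, 449.8, 371 and 498, against 554 ± 19.4 (SD, n = 5) in VAS WT (log2 fold change -0.44, SE 0.12, adjusted p = 0.0287, limma). In both genes all 5 libraries lay below VAS WT, 2 of the 9 genes, where 4.21% of all genes tested lay wholly lower and 2.13% wholly higher, and replicates 2 and 4 lay lowest. *Jam3* read 397, 672, 431, 689 and 385 in the libraries labelled VAD WT. In VAS WT it read 800.1, 647, 757, 719 and 765, so that the groups overlapped (log2 fold change -0.56, SE 0.14, adjusted p = 0.0108, limma). For *Jam3* it was replicates 2 and 4 that lay within the range of VAS WT.

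These calls were not firm. Without replicates 2 and 4, *F11r* (log2 fold change -0.16, adjusted p = 0.0654, limma) and *Ocln* (-0.22, adjusted p = 0.0573) no longer passed, while *Jam3* (-0.86, adjusted p = 3.23e-08) did and *Jam2* (-0.85, adjusted p = 7.82e-07) joined it. In the same fit *Tjp1* (0.24, adjusted p = 0.0123, limma), *Tjp3* (0.27, adjusted p = 0.0297) and *Cgn* (0.18, adjusted p = 0.0471) were called higher, the last 2 with the sign turned from -0.31 and -0.26. *Marveld2* and *Prkci* passed neither with nor without the 2 libraries. The fit without them called 17.6% of all genes tested higher and 20.3% lower. The *F11r* call was also lost on leaving out replicate 2 (0.0567) or 4 (0.0578) of VAD WT alone, or any 1 of the 5 VAS WT libraries (adjusted p from 0.0503 to 0.0793, limma). The *Ocln* call was lost without VAS WT replicate 2 (0.0549), 4 (0.0620) or 5 (0.0612). When limma was fitted to this pair of groups alone, none of the 9 genes was called lower, and 3 were at an unadjusted p under 0.05, while edgeR and DESeq2 on recovered reads called 2 and 3.

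**Figure D4:**
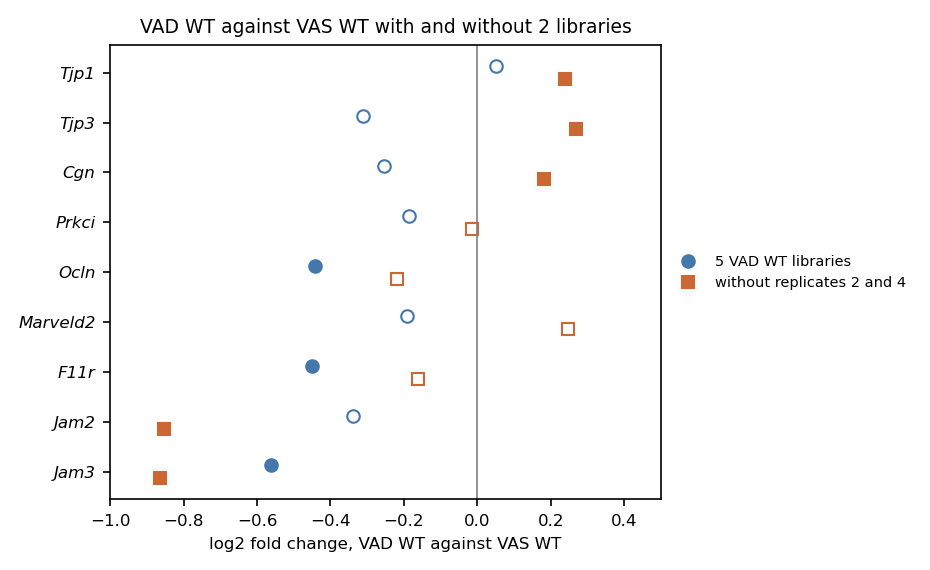
Log2 fold change (horizontal axis) of the 9 genes between VAD WT and VAS WT with all 5 VAD WT libraries (circles) and without replicates 2 and 4 (squares), filled where the limma adjusted p was under 0.05. *Jam2* moves from -0.34 to -0.85, and *Tjp3* from -0.31 to 0.27.

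The remaining genes show the same split among the libraries labelled VAD WT. *Tjp3* read 3609, 1194, 3489, 1394 and 3478 there, with 2 libraries below and 3 above all 5 of VAS WT (2791, 3217, 2829, 3071 and 2756). *Cgn*, the cingulin gene, read 1948, 891, 2250.3, 1024 and 1924, against 1796 ± 56.7 (SD, n = 5) in VAS WT, and *Marveld2* read 367, 170.0, 352, 185 and 425, against 321 ± 32.8 (SD, n = 5). *Jam2* ran the other way, at 571, 1282, 467, 1389 and 607, with replicates 2 and 4 above all 5 of VAS WT. Beside these values, 8 of the 10 RPE markers were called lower in the libraries labelled VAD WT, with sums of 41317 to 83907 against 130919 to 147371 and a mean log2 value that differed by -1.19 (adjusted p = 0.0127, exact permutation test). RPE sums were 41317 to 44097 in replicates 1, 3 and 5 and 81648 to 83907 in replicates 2 and 4, all below VAS WT. Macrophage markers were lower in 3 of 7 (2232 to 2858 against 3038 to 3294) and surface epithelium markers in 5 of 15. Skeletal muscle markers were lower in 5 of 8, but their list test did not pass (adjusted p = 0.152, exact permutation test). Their sums were 3628 to 3784 in replicates 1, 3 and 5 and 11791 to 12650.1 in replicates 2 and 4, against 10945 to 12946. Schwann cell markers were lower in 2 of 7, with a mean log2 value that differed by -0.58 (adjusted p = 0.0127, exact permutation test). Their sums were 16853 to 18254 in replicates 1, 3 and 5 and 6883 to 7248 in replicates 2 and 4, against 9926 to 10804. The summed surface epithelium markers were 1146824 to 1178271 in replicates 1, 3 and 5 and 437674 to 442035 in replicates 2 and 4, endothelium markers 9156 to 9596 and 23089 to 23437, fibroblast markers 48746 to 50837 and 154907 to 158799, and rod markers 125578 to 129542 and 329402 to 330173. Their part in the result was not tested.

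The comparison of the libraries labelled VAD *Stra6*-/- with VAS *Stra6*-/- asked what the diet did where the transporter is labelled absent. *Tjp3*, *F11r*, *Marveld2*, *Tjp1*, *Prkci*, *Ocln* and *Cgn* fell, 7 of 9 genes, where 28.8% of all genes tested were called lower. *Jam3* alone of the 9 rose, where 24.4% were called higher, and *Jam2* did not pass. The median log2 fold change of the 9 genes was -2.04, and that of all genes tested was -0.07. The groups did not overlap in 8 of the 9, 7 lower and 1 higher, where 26.8% of all genes tested lay wholly lower and 24.5% wholly higher.

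Among the scaffolds, *Tjp3* read 111, 136, 139, 166 and 120.1 in the libraries labelled VAD *Stra6*-/-. In VAS *Stra6*-/- it read 2694, 2877, 2839.9, 3243 and 3009.9. The fall was 21.8-fold, the largest of the 9 genes (log2 fold change -4.45, SE 0.24, adjusted p = 1.01e-12, limma). The exons of *Tjp3* (chromosome 10 from 81273207 to 81291581 of GRCm38) overlap those of *Apba3* on the opposite strand, and whether the counting used strand is not given in the sources used here. *Apba3* averaged 537 ± 41.1 (SD, n = 5) here, against 606 ± 59.3 (SD, n = 5) in VAS *Stra6*-/-, and did not pass (adjusted p = 0.107, limma). *Tjp1* (chromosome 7 from 65296165 to 65527781) read 962, 1085, 1016, 1083 and 859, all below the lowest VAS *Stra6*-/- library at 4266, a 4.49-fold fall (log2 fold change -2.17, SE 0.10, adjusted p = 8.97e-14, limma). *Cgn* (chromosome 3 from 94760069 to 94786492), which links the zonula occludens scaffolds to actomyosin, read 583, 522, 657, 644 and 536 against 1931, 1866, 1934, 1904 and 1925. Its 3.26-fold fall was the smallest of the 7 (log2 fold change -1.70, SE 0.18, adjusted p = 5.62e-08, limma).

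Both members with the MARVEL domain fell. *Marveld2* (chromosome 13 from 100595957 to 100616971) read 52.4, 73.1, 68.6, 50.0 and 75.3, against 369, 379.7, 419, 366 and 303 in VAS *Stra6*-/-, a 5.72-fold fall (log2 fold change -2.52, SE 0.21, adjusted p = 1.90e-09, limma). *Ocln*, chromosome 13 from 100496507 to 100552718 and so near *Marveld2* on the same chromosome and strand, read 186, 231, 188, 169 and 173 against 763, 718, 739, 708 and 755. Its fall was 3.89-fold (log2 fold change -1.96, SE 0.12, adjusted p = 1.74e-11, limma). The polarity kinase gene *Prkci* (chromosome 3 from 30995747 to 31052959) read 741, 799, 689, 723 and 617 against 3048, 3027, 2946, 2778 and 2855, 4.11-fold lower (log2 fold change -2.04, SE 0.10, adjusted p = 1.57e-13, limma). No library labelled VAD *Stra6*-/- reached the lowest VAS *Stra6*-/- library in any of the 3 genes.

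The 3 junctional adhesion molecules moved apart. *F11r* (chromosome 1 from 171437535 to 171464603) read 686, 682, 608, 749.6 and 810.0 in the libraries labelled VAD *Stra6*-/-, against 4648, 4456, 4581, 4518 and 4819.8 in VAS *Stra6*-/-, 6.53-fold lower (log2 fold change -2.71, SE 0.13, adjusted p = 1.45e-13, limma). *Jam3* (chromosome 9 from 27097384 to 27155421) read 3223, 3137, 3009, 2839 and 3613 against 650.1, 553, 614, 644 and 599. All 5 libraries labelled VAD *Stra6*-/- lay above every library of the other groups, and the rise was 5.16-fold (log2 fold change 2.37, SE 0.14, adjusted p = 3.45e-12, limma). An exon of *Jam3* overlaps an antisense gene of the annotation, *Gm48796*, whose reads cannot be told apart without strand. *Jam2* (chromosome 16 from 84774123 to 84825928) read 1165, 1333, 1361, 1267 and 1132 against 959, 1007, 1135, 1021 and 971. Its groups overlapped by the highest VAS *Stra6*-/- library, and it did not pass (adjusted p = 0.268, limma; log2 fold change 0.30, 95% interval -0.15 to 0.75). With only these 2 groups in the fit it was called higher (adjusted p = 0.00246, limma).

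Marker lists moved with these values. All 15 surface epithelium markers were called lower on the VAD diet, with sums of 33019 to 43126 against 952711 to 989864. Of the 10 RPE markers 9 were called higher, with sums of 556369 to 599926 against 146763 to 154467. All 8 fibroblast markers (209109 to 221094 against 46008 to 47736) and all 7 macrophage markers (8158 to 8426 against 2815 to 2989) were higher too, as were 7 of the 12 endothelium markers (18028 to 18459 against 12811 to 13649), while 6 of the 10 rod markers (92562 to 106022 against 165854 to 177379) and 5 of the 8 skeletal muscle markers (16396 to 19508 against 27382 to 31265) were lower. Schwann cell markers gave 3 higher and 1 lower of 7. None of these markers was at 0 in all libraries of a group, and their part in the result was not tested.

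The comparison between the genotypes on the VAD diet shares its first group with the comparison before, so its values are set beside those and not counted as further support. *Tjp3*, *Marveld2*, *F11r*, *Tjp1*, *Cgn*, *Prkci* and *Ocln* had lower values under the *Stra6*-/- label than under the WT label, 7 of 9 genes, where 29.6% of all genes tested were called lower. *Jam3* and *Jam2* were higher, where 26.2% were. The log2 fold changes were -4.14 for *Tjp3*, -2.14 for *Marveld2*, -1.96 for *F11r*, -1.54 for *Tjp1*, -1.36 for *Cgn*, -1.28 for *Prkci* and -1.11 for *Ocln* (largest adjusted p = 1.48e-06, limma). *Jam3* differed by 2.66 (adjusted p = 5.70e-13, limma). In these 8 genes the groups did not overlap, also against replicates 2 and 4 of VAD WT, where 19% of all genes tested lay wholly lower and 18.3% wholly higher. Without those 2 libraries (32.5% of all genes called lower and 30.7% higher) all 8 were called again, at -4.72 for *Tjp3*, -2.57 for *Marveld2*, -2.25 for *F11r*, -1.79 for *Cgn*, -1.73 for *Tjp1*, -1.45 for *Prkci*, -1.33 for *Ocln* and 2.96 for *Jam3* (log2 fold changes, limma).

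The *Jam2* difference was larger without the 2 libraries that stood apart. Its log2 fold change was 0.68 (adjusted p = 0.0109, limma) with groups that overlapped, and 1.19 (adjusted p = 8.62e-10) without replicates 2 and 4 of VAD WT. It was lost in edgeR on recovered reads (0.53, adjusted p = 0.0622) and when limma was fitted to these 2 groups alone (adjusted p = 0.0954). Between these groups too, all 15 surface epithelium markers were called lower and 9 of 10 RPE markers and 7 of 8 fibroblast markers higher. All 8 skeletal muscle markers and 6 of 7 macrophage markers were higher as well, and 8 of 10 rod markers lower. Endothelium markers gave 4 higher and 1 lower of 12, and Schwann cell markers 2 higher and 4 lower of 7. The part of these lists in the result was not tested.

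Whether the diet effect differed with the genotype label was tested by the interaction term of the same fit. It was negative for 7 of the 9 genes, where 24.8% of all genes tested were called so, and positive for *Jam3*, where 19.5% were. The term was -4.14 for *Tjp3* (95% interval -4.84 to -3.44), -2.33 for *Marveld2* (-2.96 to -1.69), -2.26 for *F11r* (-2.64 to -1.88) and -2.22 for *Tjp1* (-2.51 to -1.92). It was -1.85 for *Prkci* (-2.14 to -1.57), -1.52 for *Ocln* (-1.89 to -1.15) and -1.45 for *Cgn* (-1.98 to -0.92), all on the log2 scale with a largest adjusted p of 7.94e-05 (limma). For *Jam3* it was 2.93 (2.53 to 3.33, adjusted p = 7.59e-11, limma). Without replicates 2 and 4 of VAD WT the term was -4.72 for *Tjp3*, -2.76 for *Marveld2*, -2.55 for *F11r*, -2.41 for *Tjp1*, -2.03 for *Prkci*, -1.89 for *Cgn*, -1.74 for *Ocln* and 3.23 for *Jam3*, all past the threshold, in a fit that called 29% of all genes negative and 25.7% positive. *Jam2* did not pass at 0.63 (-0.00310 to 1.27, adjusted p = 0.102, limma), but did without replicates 2 and 4 of VAD WT (1.15, adjusted p = 1.73e-07), without replicate 2 alone (0.81, adjusted p = 0.0189) and without replicate 4 alone (0.84, adjusted p = 0.0101).

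Ratios between related genes within a library do not depend on how libraries were scaled. Of 16 exact two-sided permutation tests on 4 ratios, 11 had an adjusted p under 0.05, and 10 of them stood at 0.00794, the smallest p that 5 against 5 allows. The ratio of *Tjp3* to *Tjp1* was 0.911, 1.07, 1.06, 1.12 and 1.07 in VAS WT. It was 0.632, 0.659, 0.581, 0.760 and 0.650 in VAS *Stra6*-/- and 0.116, 0.126, 0.138, 0.154 and 0.141 in the libraries labelled VAD *Stra6*-/-. The groups did not overlap, and the difference was -0.67 on the log2 scale (SE 0.08, adjusted p = 0.0127) between VAS *Stra6*-/- and VAS WT and -2.28 on the log2 scale (SE 0.09, adjusted p = 0.0127) between the diets in *Stra6*-/- (exact permutation tests). In the libraries labelled VAD WT the ratio was 1.09, 0.5, 1.03, 0.583 and 1.06, with replicates 2 and 4 low, and its difference from VAS WT did not pass (-0.36 on the log2 scale, SE 0.25, adjusted p = 0.254, exact permutation test).

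**Figure D5:**
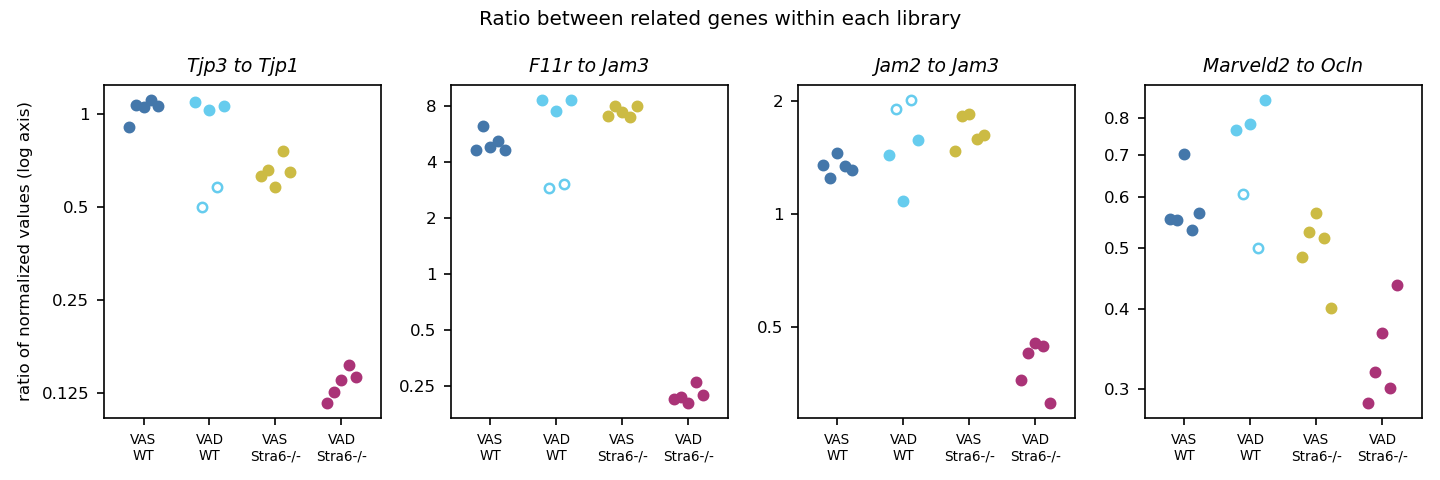
Ratio of normalized values (log axis) of *Tjp3* to *Tjp1*, *F11r* to *Jam3*, *Jam2* to *Jam3* and *Marveld2* to *Ocln* within each of the 20 libraries, with open points for replicates 2 and 4 of VAD WT. *F11r* to *Jam3* lies at 0.202 to 0.264 in VAD *Stra6*-/- and at 4.63 to 6.25 in VAS WT.

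The ratio of *F11r* to *Jam3*, both junctional adhesion molecules, was 4.64, 6.25, 4.83, 5.22 and 4.63 in VAS WT and 7.14, 8.04, 7.45, 7.01 and 8.04 in VAS *Stra6*-/-. In the libraries labelled VAD *Stra6*-/- it was 0.213, 0.218, 0.202, 0.264 and 0.224, so that *Jam3* reads outnumbered those of *F11r* in all 5. The difference was 0.57 on the log2 scale (SE 0.09, adjusted p = 0.0127) between the genotypes on VAS and -5.07 on the log2 scale (SE 0.08, adjusted p = 0.0127) between the diets in *Stra6*-/- (exact permutation tests). The range was 2.91 to 8.70 in the libraries labelled VAD WT. Its difference from VAS WT did not pass (0.11 on the log2 scale, SE 0.37, adjusted p = 0.754, exact permutation test), but did without replicates 2 and 4 (difference 0.70, adjusted p = 0.0440).

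*Jam2* to *Jam3* was 1.25 to 1.46 in VAS WT, 1.47 to 1.85 in VAS *Stra6*-/- and 0.314 to 0.453 in the libraries labelled VAD *Stra6*-/-. The differences were 0.31 on the log2 scale (SE 0.07, adjusted p = 0.0127) and -2.07 on the log2 scale (SE 0.12, adjusted p = 0.0127) in the same pairs of groups (exact permutation tests). *Marveld2* to *Ocln* was 0.534 to 0.701 in VAS WT and 0.402 to 0.567 in VAS *Stra6*-/-, a difference that did not pass (-0.22 on the log2 scale, SE 0.11, adjusted p = 0.0741, exact permutation test). In the libraries labelled VAD *Stra6*-/- it was 0.285 to 0.437, lower than in VAS *Stra6*-/- with overlapping groups (-0.56 on the log2 scale, SE 0.14, adjusted p = 0.0231, exact permutation test). In the libraries labelled VAD WT, *Jam2* to *Jam3* was 1.08 to 2.01 and *Marveld2* to *Ocln* 0.499 to 0.854. Neither difference from VAS WT passed (0.22 with adjusted p = 0.245 and 0.25 with adjusted p = 0.176, exact permutation tests). Without replicates 2 and 4 the first was 0.00863 (adjusted p = 0.964), which did not pass, and the second was 0.47 (adjusted p = 0.0440), which did (exact permutation tests). Between the genotype labels on the VAD diet all 4 ratios were lower under *Stra6*-/-, with differences of -2.59 for *Tjp3* to *Tjp1*, -4.62 for *F11r* to *Jam3*, -1.98 for *Jam2* to *Jam3* and -1.03 for *Marveld2* to *Ocln* on the log2 scale (adjusted p = 0.0127 for each, exact permutation tests). All 4 passed without replicates 2 and 4 as well (adjusted p = 0.0440 for each, exact permutation tests). Transcripts of the paired genes share stretches of at most 12 to 13 bases.

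The other genes of the junction were read from 3 lists, 14 plaque scaffolds, 17 polarity genes and 10 transmembrane proteins, all 41 in the table and tested. In VAS *Stra6*-/- against VAS WT 20 were higher, where 15.9% of all genes tested were, and 4 lower, where 10.8% were, with a median log2 fold change of 0.30. *Pard6g*, a Par6 subunit that binds the kinase encoded by *Prkci*, rose most (1953 ± 91.1 against 893 ± 72.4, SD, n = 5; log2 fold change 1.13, adjusted p = 3.86e-05, limma), followed by the Par3 relative *Pard3b* (log2 fold change 0.92, adjusted p = 0.00110, limma). *Crb2*, a Crumbs protein of the apical membrane, was lower (501 ± 24.3 against 1104 ± 119.7; log2 fold change -1.13, adjusted p = 2.30e-05, limma), as was *Nectin3*, listed in the table as *Pvrl3*, an adhesion molecule of adherens junctions (log2 fold change -0.95, adjusted p = 3.27e-06, limma).

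On the VAD diet under the WT label only 1 of the 41 was higher, *Sympk*, which encodes the plaque protein symplekin (log2 fold change 0.28, adjusted p = 0.0431, limma), and 4 were lower, beside 3.29% and 5.5% of all genes tested. *Nectin3* (log2 fold change -0.97, adjusted p = 7.74e-06, limma) and *Ildr2*, an angulin-family protein of tricellular contacts (log2 fold change -0.55, adjusted p = 2.99e-05, limma), fell most. Without replicates 2 and 4 of VAD WT, 10 of the 41 were higher and 10 lower, beside 17.6% and 20.3% of all genes, with *Sympk* at 0.38, *Nectin3* at -0.97 and *Ildr2* at -0.49 on the log2 scale. Between those labelled VAD *Stra6*-/- and VAS *Stra6*-/-, 23 of the 41 were lower and 5 higher, beside 28.8% and 24.4% of all genes tested, with a median of -0.51 beside the -2.04 of the 9 genes. The transmembrane list had 6 of 10 lower (median -1.34), the plaque scaffolds 8 of 14 (median -0.44) and the polarity genes 9 of 17 (median -0.22). *Ildr1*, the relative of *Ildr2* that brings tricellulin to tricellular contacts, was 67.2 ± 18.0 against 1189 ± 137 (log2 fold change -4.15, adjusted p = 1.51e-12, limma), and *Marveld3*, another MARVEL protein of the junction, was 29.8 ± 11.2 against 498 ± 59.1 (log2 fold change -4.09, adjusted p = 1.87e-11, limma). Of the 5, *Nectin3* (log2 fold change 1.53, adjusted p = 3.09e-10, limma) and *Amot*, an angiomotin (log2 fold change 1.38, adjusted p = 8.67e-05, limma), rose most.

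Against the libraries labelled VAD WT, 23 of the 41 were lower and 10 higher in those labelled VAD *Stra6*-/-, beside 29.6% and 26.2% of all genes tested. *Ildr1* (log2 fold change -3.57, adjusted p = 2.01e-11, limma) and *Marveld3* (log2 fold change -3.44, adjusted p = 3.46e-10, limma) were lowest, and *Ildr2* (1785 ± 132 against 422 ± 27.6; log2 fold change 2.08, adjusted p = 1.72e-15, limma) and *Amot* (log2 fold change 1.70, adjusted p = 6.63e-06, limma) highest. Without replicates 2 and 4 of VAD WT, 23 were lower and 12 higher, with *Ildr1* at -4.05, *Marveld3* at -3.89, *Ildr2* at 2.01 and *Amot* at 2.23. The interaction term was called negative for 22 of the 41 genes and positive for 4, beside 24.8% and 19.5% of all genes, and for 23 and 11 without those libraries, beside 29% and 25.7%. The angulins *Ildr1* and *Ildr2* thus moved in opposite directions between these groups, as *F11r* and *Jam3* did among the adhesion molecules.

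The pattern of each gene over the 20 libraries was compared with those of 12299 genes with a mean of at least 100, by the root mean square difference of the centred log2 values. The 3 closest genes were taken for each, and are given with that difference. Those of *Tjp1*, whose own spread about its mean was 0.81, included *Cast* (0.11) and *Ablim1* (0.12), and those of *Prkci* (own spread 0.76) included *Diap1* (0.12) and *Znrf2* (0.12). For *Tjp3* (own spread 1.92) they were *Cblc* (0.17), *Krt6b* (0.18) and *Cldn3* (0.20), the first a ubiquitin ligase, the second an epithelial keratin and the last a claudin.

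*Ocln* (own spread 0.75) had 1 of the 9 genes, *Prkci*, among its closest: *Galnt7* (0.12), *Zmym1* (0.14) and *Prkci* (0.15). For *F11r* (1.07) they were *Rab3d* (0.12), *Alcam* (0.14) and *Serpinb1a* (0.14), for *Marveld2* (1.06) *Pdlim1* (0.14), *Gdpd2* (0.19) and *Gltp* (0.19) and for *Cgn* (0.74) *Sc5d* (0.14), *Aacs* (0.14) and *Fam111a* (0.14). *Sc5d* acts in sterol synthesis and *Rab3d* in secretion. For *Jam3* (1.07) the closest were *Prkcq* (0.18), *Myrip* (0.18) and *Fam13a* (0.20), of which *Myrip* is known from melanosome transport in the RPE and *Prkcq* encodes protein kinase C theta. For *Jam2* (0.42), the flattest of the 9, they were *Atp1b2* (0.15), *Cd93* (0.15) and *Camk2d* (0.16), of which *Cd93* is an endothelial gene. The libraries share depth, scaling and cell makeup, so these differences describe likeness only.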

How the data were processed

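RNA of RPE-choroid from 20 mice was sequenced. Per the labels and methods, the authors aligned reads to GRCm38/mm10 with STAR 2.5.3a and counted genes with RSEM 1.2.30. The deposited signal is the gene count divided by 1 DESeq2 (1.32.0) size factor per library, as the values show: in 19 libraries whole reads were recovered for 100% of values (tolerance 0.01), and the step of replicate 1 labelled VAD *Stra6*-/- lies too near 1 to claim it.

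Log2(value + 1) was fitted with limma 3.58.1 (R 4.3.3), with 4 group means and an intensity trend, for the 18807 genes with at least 5 recovered reads in total, and p-values were adjusted by Benjamini-Hochberg at 0.05. The added 1 understates changes of low genes. Ratios and marker lists were compared by exact two-sided permutation tests (scipy 1.17.1; 16 and 32 tests). edgeR 4.0.16 and DESeq2 1.42.0 on the recovered reads of 19 libraries, pseudocounts of 0.5 and 4, other filters, TMM scaling, a replicate block and left-out libraries were the alternatives. The fits were tested on simulated data. The 9 genes, the 41 other junction genes and the marker lists were chosen with earlier results of these data known. Named were the 9 genes, *Stra6*, for each comparison and direction the 2 listed junction genes with the largest called change and a mean of at least 100, and the 3 genes nearest in pattern to each of the 9, of which 1 for *Tjp1* and 1 for *Prkci* is not reported here. *Apba3* was added after its values were seen, for its overlap with *Tjp3*. Replicates are separate mice by the methods of the study.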

Additional observations from a re-analysis of the deposited data

Results flagged for a closer look

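The effect of the VAD diet differed between the genotype labels in 8 of the 9 genes, by a test of the difference itself (the interaction term of the limma fit over all 20 libraries, Benjamini-Hochberg adjusted over all genes). Of all genes tested, 24.8% were called negative and 19.5% positive in the same test. The difference, the diet effect under the *Stra6*-/- label minus that under the WT label on the log2 scale, was -4.14 for *Tjp3*, -2.33 for *Marveld2*, -2.26 for *F11r*, -2.22 for *Tjp1*, -1.85 for *Prkci*, -1.52 for *Ocln*, -1.45 for *Cgn* and 2.93 for *Jam3*. Without replicates 2 and 4 of VAD WT all 8 stayed past the threshold, where 29% of all genes were called negative and 25.7% positive. *Stra6* values alone go against the labels of the VAD libraries, while *Stra6* relative to the RPE marker sum of the same library follows them. Both the sign and the size of these differences rest on the labels.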

How the results depend on the processing

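Of the 31 calls on single genes, all but 4 kept their direction and their side of the threshold under every alternative fit tried (another tool, pseudocount, filter, TMM scaling, the replicate block, fewer libraries). The 4 were *F11r*, *Ocln* and *Jam3* in VAD WT against VAS WT and *Jam2* in VAD *Stra6*-/- against VAD WT. Only the 2 groups compared in the fit gave 5 genes higher and 1 lower in VAS *Stra6*-/- against VAS WT, 0 lower in VAD WT against VAS WT, 2 higher in VAD against VAS *Stra6*-/- and 1 higher in VAD *Stra6*-/- against VAD WT. In the last comparison edgeR on recovered reads also gave 1 higher. The share of all genes called in the fits of 2 groups and in edgeR is not given here, so these counts cannot be set beside it. Without VAD WT replicates 2 and 4, 3 genes were higher in VAD WT against VAS WT, *Tjp3* turned to 0.27 and *Cgn* to 0.18, the *Tjp3* to *Tjp1* difference turned to 0.0283, and the interaction was positive for 2 genes; in the 41 other junction genes this alternative, chosen after seeing the data, gave 10 higher and 10 lower against 1 and 4, and 11 positive interactions against 4. Requiring a log2 fold change beyond 2 as well left 0 higher in VAS *Stra6*-/- against VAS WT, 0 lower in VAD WT against VAS WT, 1 higher and 2 lower in VAD *Stra6*-/- against VAD WT, and 4 negative interactions. In VAD *Stra6*-/- against VAS *Stra6*-/-, *Ocln* (-1.96) and *Cgn* (-1.70) fell short of it, while the other falls and the rise of *Jam3* passed. Leaving out each library in turn gave 1 to 3 genes lower in VAD WT against VAS WT and 1 to 2 positive interactions, and left the other 8 counts as they were. The replicate block lowered the count in VAD WT against VAS WT to 2, since *Ocln* missed the threshold (adjusted p = 0.0514, limma), and changed no other call. Same-numbered libraries did not deviate together (r from -0.07 to 0.07), so the numbers do not pair them. The cause of these changes was not tested. Depth did not limit the 9 genes, each with 57 or more reads in each of the 19 libraries with recovered reads, while 5 libraries a group limit the exact tests to 0.00794.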
